A study of Mus musculus with 40 samples.

Results

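The genes described here encode proteins that neutrophils store in their granules. They are 10 of the 45706 genes in the deposited tables and were chosen by name, not by level. The 4 azurophil (primary) granule genes are Mpo, which encodes the peroxidase that makes hypochlorous acid, and Elane, Prtn3 and Ctsg, which encode serine proteases. The 6 other genes belong to specific (secondary) or related granules: Ltf encodes the iron carrier lactoferrin, Lcn2 encodes lipocalin-2, which binds bacterial siderophores, Camp encodes a cathelicidin antimicrobial peptide, Ngp encodes neutrophilic granule protein, Mmp8 encodes the neutrophil collagenase and Chil3 encodes the chitinase-like protein Ym1. All 10 were found in the tables by their Ensembl identifiers.

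Granule proteins are made in waves while neutrophils mature in the bone marrow. Azurophil genes are transcribed in promyelocytes and specific granule genes in the later myelocytes and metamyelocytes, and most of this transcription has ended when the cell reaches the blood, so that a circulating neutrophil holds much granule protein and little of its mRNA. Outside neutrophils, Lcn2 is also a defense gene of inflamed epithelium, lactoferrin is made by glandular epithelium, and Chil3 is also expressed by monocytes and macrophages.

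RNA had been sequenced from 40 libraries in 10 groups of 4. Neutrophils and monocytes had each been taken from 3 sources, which were colon tumors, the blood of the mice bearing them and healthy blood, and epithelial and stromal cells came from tumors and from healthy colon. The tumor-bearing mice carried the transgene Cdx2CreERT2 - Apc fl/fl, in which Cre driven by the Cdx2 promoter removes Apc from colon epithelium, and had been given 25 mg/kg tamoxifen once, in corn oil, at 8 to 10 weeks of age. Their strain labels run from C57Bl6/Sv129 to C57Bl6/Sv152, increasing by 1 from library to library also within 1 animal, so the numbers were not read as separate strains. The healthy mice were C57Bl6 with no transgene and no agent, and their age is not labelled. Genotype, any difference in strain background, tamoxifen and tumor therefore cannot be told apart in any comparison of tumor-bearing with healthy mice. Several mice gave more than 1 library, and the titles of 3 healthy blood monocyte libraries and 1 neutrophil library from blood of tumor-bearing mice name 2 animals each. Neutrophils had been sorted as CD45+ EpCAM- CD11b+ MHCII- cells that were Ly6G+ and low for Ly6C, monocytes as the Ly6G-, Ly6C-high cells of the same gate, epithelial cells as CD45- EpCAM+ and stromal cells as CD45- EpCAM-.

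Counts on genes totaled 10716847 to 38002110 per library, and mitochondrial genes took 5.34% to 83.9% of them. Of 6 neutrophil markers, Cxcr2 (a chemokine receptor of neutrophils) stood at 372 to 623 RPKM in the 8 blood neutrophil libraries, 60.4 to 441 RPKM in tumor neutrophils and at most 3.87 RPKM in any monocyte library, where RPKM is a read count divided by transcript length and by library depth. Ly6g, the gene of the sorting antigen, was at 3.78 ± 3.15 RPKM (SD, n = 4) in healthy blood neutrophils and at 3.23 ± 1.99 RPKM in healthy blood monocytes, and so did not set these groups apart. Replicate 1 of tumor neutrophils was at 60.4 RPKM of Cxcr2 and 33.9 RPKM of the epithelial gene Epcam, and replicates 3 and 4 of tumor stromal cells were at 42.3 and 30.9 RPKM of Cxcr2, while the other 2 stood at 1.43 and 0.559 RPKM.

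The 10 genes fell into 3 patterns of level, shown in the plot of every gene in each library. The azurophil genes were at 2.54 RPKM or less in every library and had their highest values in blood monocyte libraries. Ltf, Lcn2, Camp, Ngp and Mmp8 had their highest mean in neutrophils from blood of tumor-bearing mice. Chil3 had its highest mean in monocytes from the same blood. These libraries are bulk samples, so that fewer cells holding a transcript and less of it per cell cannot be told apart.

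**Figure D1:**
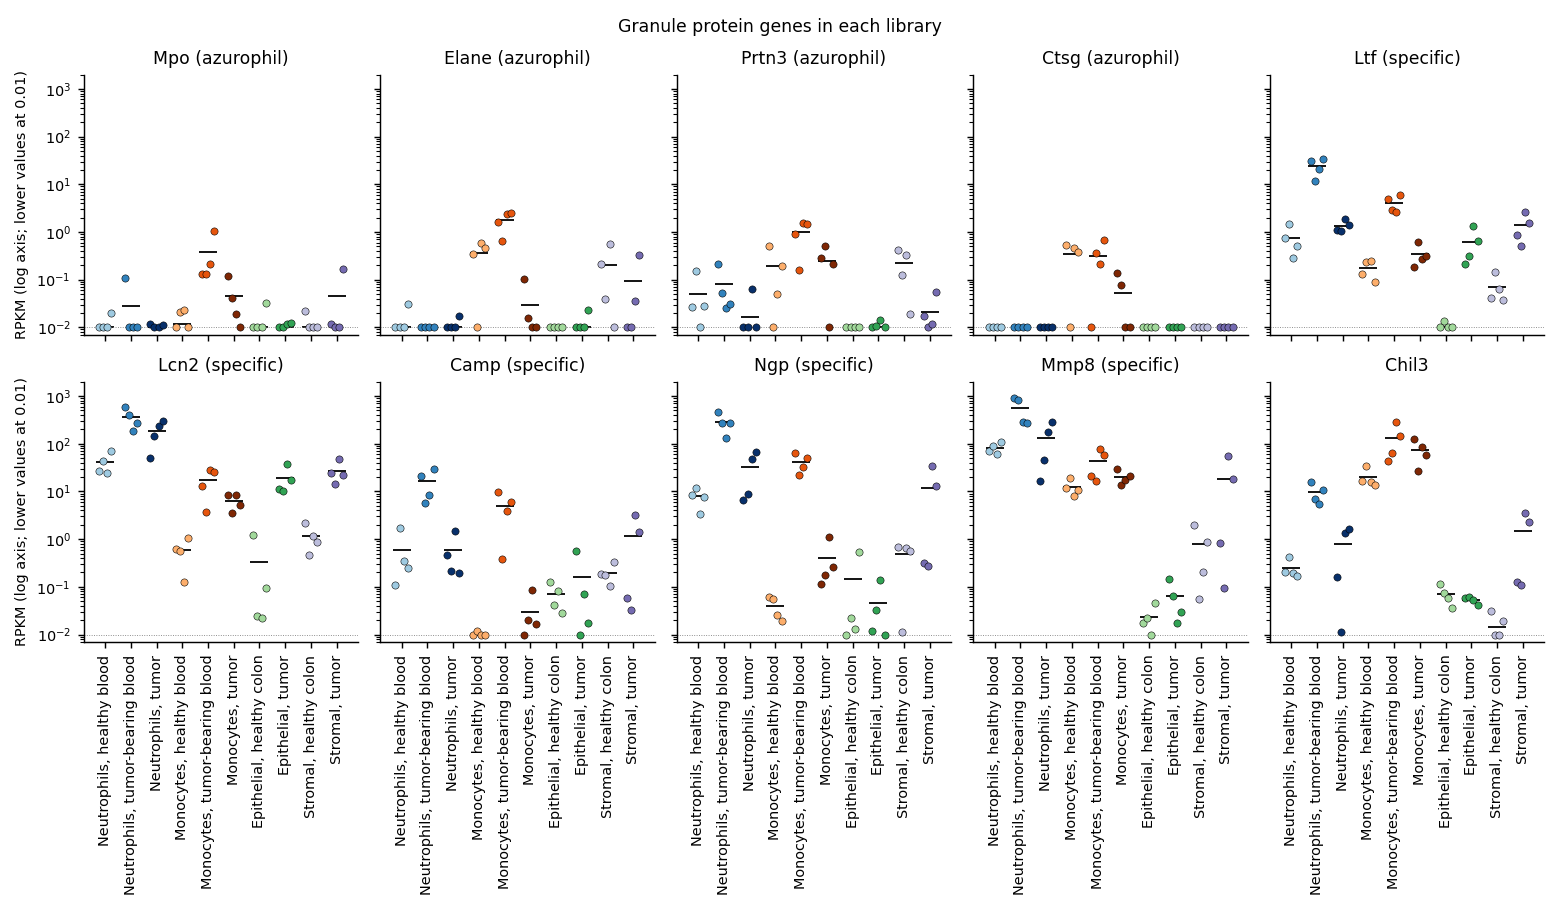
Level of each granule protein gene in each library. Points are libraries, bars are means of 4 libraries, the vertical axis is RPKM on a log scale with values under 0.01 drawn at 0.01, and columns are the 10 groups. The 4 azurophil genes stay at 2.54 RPKM or less everywhere, 5 genes peak in blood neutrophils of tumor-bearing mice, and Chil3 peaks in their blood monocytes.

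Among the azurophil genes, Elane was the highest. In monocytes from blood of tumor-bearing mice its 4 libraries stood at 1.60, 0.651, 2.40 and 2.54 RPKM, against 0.350, 0, 0.598 and 0.464 RPKM in healthy blood monocytes. The ranges did not overlap, but the difference did not pass the test (log2 fold change 2.43, SE 0.90, adjusted p = 0.418 by the edgeR quasi-likelihood test). In tumor monocytes Elane stood at 0.101, 0.0157, 0 and 0.00344 RPKM, below each blood library of tumor-bearing mice. It fell by 5.67 on the log2 scale from blood to tumor (SE 1.15, adjusted p = 0.00727).

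Elane was also lower in blood neutrophils than in blood monocytes of tumor-bearing mice. All 4 neutrophil libraries from blood of tumor-bearing mice held 0 counts of Elane, against 394 counts summed over the 4 blood monocyte libraries. With the floor set at 3 counts over the group, Elane was at least 123-fold higher in these monocytes than in the neutrophils (adjusted p = 3.12e-04).

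Prtn3, which lies 3.073 kb from Elane, was at 0.898, 0.159, 1.52 and 1.49 RPKM in monocytes from blood of tumor-bearing mice and at 0.210, 0.0520, 0.0260 and 0.0307 RPKM in neutrophils from the same blood. Replicate 2 of the monocytes overlapped with the neutrophils, and the gene was lower in neutrophils by the test (log2 fold change -2.97, SE 0.86, adjusted p = 0.0145, and 0.0572 in 1 model of all 40 libraries). Prtn3 overlaps Plppr3 on the other strand, and whether strand was used in counting is not given in the sources used here, so its reads may include those of Plppr3.

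Mpo was at 0.133, 0.129, 0.214 and 1.02 RPKM in monocytes from blood of tumor-bearing mice and at most 0.0229 RPKM in healthy blood monocytes. The ranges did not overlap, and the difference missed the threshold (log2 fold change 5.23, SE 1.21, adjusted p = 0.131, and 3.04e-04 to 0.463 over 8 alternatives, called with DESeq2). Mpo overlaps the antisense gene Gm11505 and carries the same doubt about strand. Ctsg was at 3.56e-04, 0.358, 0.211 and 0.687 RPKM in monocytes from blood of tumor-bearing mice and at 0.531, 0, 0.456 and 0.371 RPKM in healthy ones. The ranges overlapped, and the log2 fold change of 0.03 (SE 1.22) was not called and took the other sign under 6 of the alternatives.

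For Elane and Mpo the highest group, blood monocytes of tumor-bearing mice, was separate from the next in order, which were healthy blood monocytes for Elane and tumor monocytes for Mpo. All the lower neighbours of these 2 genes, and all neighbours in the order of Prtn3 and Ctsg, overlapped. In the comparisons of neutrophils between blood and tumor, and between healthy and tumor-bearing mice, none of the 4 genes had enough counts to be tested. Without the filter on low counts, 3 of them could be fitted in each and none was called, the lowest adjusted p being 0.282.

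Elane and Prtn3 are neighbours on chromosome 10 and had their highest mean in the same group, so their promoters are printed. By the gene annotation, Elane (ENSMUSG00000020125) lies on the + strand at chr10:79886247-79888215 of mm10 and Prtn3 (ENSMUSG00000057729) on the + strand at chr10:79874476-79883174. The sequences are from RefSeq on GRCm38.p6, the assembly behind mm10, and run from 250 bases before to 50 after the start that RefSeq gives for the gene, chr10:79886062-79886361 and chr10:79879417-79879716. Capitals mark AGGAAGT, the letters of an ETS-type motif like that of PU.1, a factor of myeloid cells.
Elane promoter: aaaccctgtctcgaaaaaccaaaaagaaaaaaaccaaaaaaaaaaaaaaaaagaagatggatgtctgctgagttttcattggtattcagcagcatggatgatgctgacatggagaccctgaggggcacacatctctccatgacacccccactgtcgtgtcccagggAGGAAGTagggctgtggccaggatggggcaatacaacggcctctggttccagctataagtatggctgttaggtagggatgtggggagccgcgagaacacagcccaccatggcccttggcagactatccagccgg
Prtn3 promoter: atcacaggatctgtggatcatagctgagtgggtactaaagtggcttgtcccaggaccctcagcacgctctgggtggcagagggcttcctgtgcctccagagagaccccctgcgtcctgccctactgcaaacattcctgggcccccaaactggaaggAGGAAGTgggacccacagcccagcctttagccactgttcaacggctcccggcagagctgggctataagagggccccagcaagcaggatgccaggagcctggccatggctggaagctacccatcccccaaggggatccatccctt
AGGAAGT, searched on both strands, began 84 bases before the start of Elane and 94 before that of Prtn3, and was also present for Mpo and Ctsg. It was present in 6 of the 10 granule gene promoters, the other 2 being Mmp8 and Chil3, and in 9.35% of 32851 promoters of the same length. The motif was chosen with the sequences in view, and a match is a description of letters only.

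Neutrophils from blood of tumor-bearing mice held far more specific granule mRNA than those from healthy blood. All 6 specific and related granule genes rose, by 2.78 to 5.34 on the log2 scale, and in each of the 6 the ranges of the 4 and 4 libraries did not overlap. A gene was called here at a Benjamini-Hochberg adjusted p under 0.05, over 13360 genes tested, and an absolute log2 fold change above 1.5, and 1.79% of all genes tested were called higher by this rule. The median over the 6 genes was 5.0, against -0.01 over all genes tested. Camp, at 4 counts in healthy replicate 1, passed the filter on low counts only through the tumor-bearing group. The count of 6 in 6 is thus partly set by the filter.

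Ngp stood at 8.43, 11.99, 3.31 and 7.70 RPKM in healthy blood neutrophils and at 456, 270, 135 and 271 RPKM in those of tumor-bearing mice. Its lowest library of tumor-bearing mice was above the highest healthy library, and it rose by 5.22 on the log2 scale (SE 0.42, adjusted p = 6.70e-04). Ltf stood at 0.733, 1.47, 0.288 and 0.506 RPKM and at 30.3, 11.4, 21.1 and 33.8 RPKM, a rise of 5.13 (SE 0.50, adjusted p = 0.00134).

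Camp, the lowest of the 5 neutrophil-rich transcripts, stood at 0.110, 1.71, 0.350 and 0.252 RPKM in healthy blood neutrophils and at 20.8, 5.79, 8.60 and 30.1 RPKM in those of tumor-bearing mice. Healthy replicate 2 was the highest of its group, and Camp still rose by 4.86 (SE 0.81, adjusted p = 0.00868).

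Mmp8 and Lcn2 began from far higher levels. Mmp8 went from 70.6, 91.4, 60.7 and 110 RPKM to 904, 833, 287 and 272 RPKM. All 4 libraries of tumor-bearing mice were above the healthy ones, replicates 1 and 2 well above replicates 3 and 4. It rose by 2.78 (SE 0.40, adjusted p = 0.00424), and this call was not made in 1 model of all 40 libraries (adjusted p = 0.202). Lcn2 went from 26.9, 44.6, 24.1 and 69.7 RPKM to 599, 396, 188 and 274 RPKM, a rise of 3.14 (SE 0.42, adjusted p = 0.00376).

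Chil3 went from 0.208, 0.417, 0.196 and 0.171 RPKM in healthy blood neutrophils to 16.2, 7.02, 5.34 and 10.8 RPKM, a rise of 5.34 (SE 0.41, adjusted p = 6.70e-04).

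**Figure D2:**
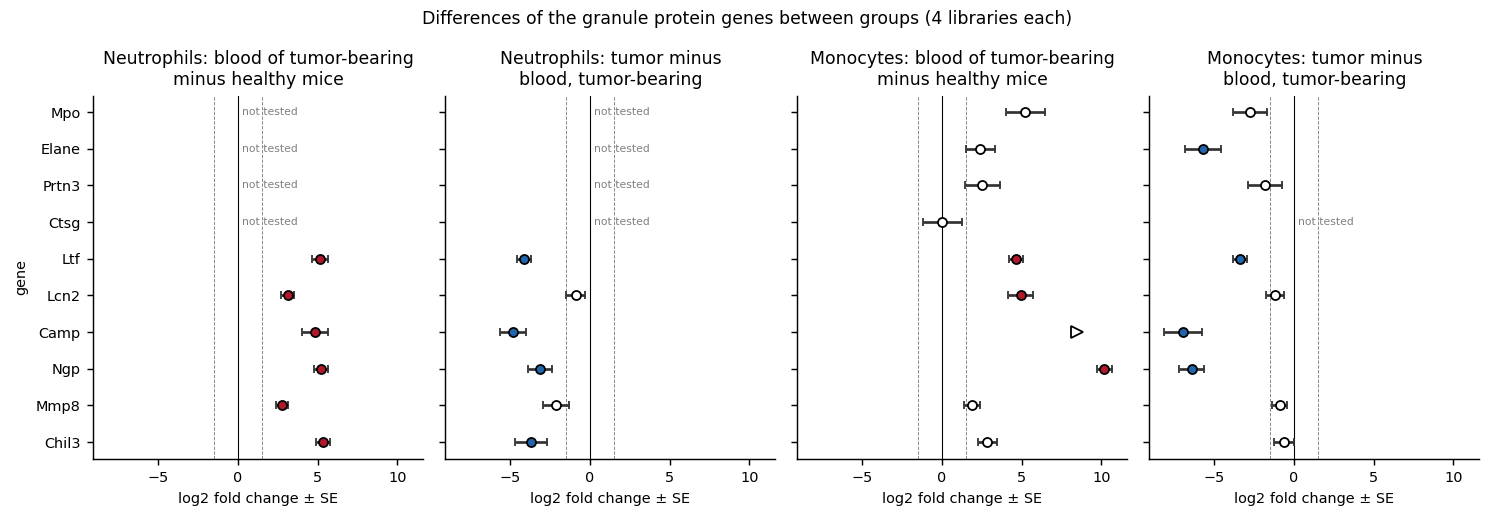
Differences of the 10 genes in 4 comparisons of 4 with 4 libraries. Points are log2 fold changes with SE, red points were called higher, blue points were called lower and open points were not called, dashed lines mark 1.5 in each direction, and the triangle is a lower bound for Camp, whose healthy monocyte libraries were at 0 counts. All 6 genes tested in blood neutrophils lie between 2.78 and 5.34, and no called gene is lower in blood monocytes of tumor-bearing mice or higher in tumor cells than in blood cells.

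Markers of other cells differed between these blood libraries. The summed level of 3 platelet markers was 214 and 223 RPKM in healthy replicates 1 and 2 and 1.53 to 38.2 RPKM in the other 6. Hemoglobin and Alas2, 4 genes of the red cell lineage, summed to 3.82 to 458 RPKM in healthy mice and 7.97 to 759 RPKM in tumor-bearing mice. Markers of progenitor cells summed to 0.0519 to 0.143 RPKM in healthy and 0.0662 to 2.61 RPKM in tumor-bearing mice, and 1 of the 3, the receptor gene Kit, was called higher. The 6 neutrophil markers summed to 3687 to 8468 RPKM and to 15242 to 19946 RPKM, and Ly6g (log2 fold change 2.90) and Retnlg (2.22) were called higher. The part of these in the result was not tested. Every one of the 6 granule genes was called after any 1 of the 8 libraries was left out. Cxcr2 had a log2 fold change of 0.15 (SE 0.23) and was not called, and the ratio of Ngp to Cxcr2 was 0.00890 to 0.0310 in healthy libraries and 0.216 to 0.901 in libraries of tumor-bearing mice.

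Genes of the other granule lists were counted in the same fit. Of 11 other genes of specific granules, 4 rose: Cd177 (a surface antigen of neutrophils, 3.25), Olfm4 (a glycoprotein of a neutrophil subset, 2.54), Cybb (the large subunit of the NADPH oxidase, 1.91) and Chil1 (a chitinase-like protein, 1.69), with a median of 0.83 over the 11. Of 3 gelatinase granule genes tested, Mmp25, a membrane-bound metalloprotease, rose by 2.01, while Mmp9, the gelatinase itself, had a log2 fold change of 0.82 and was not called. Serpinb1a, an inhibitor of elastase-like proteases, rose by 3.53, and Slpi, the secretory leukocyte protease inhibitor, had 0.16 and was not called. Among 6 other azurophil genes tested, Ctsc, whose product activates the granule serine proteases, rose by 1.62. None of 7 transcription factors of granulocyte maturation tested was called by edgeR, limma-voom or DESeq2 and none had an unadjusted p under 0.05, among them Cebpe (0.33), a factor needed for specific granules. The levels of 4 genes of dividing cells summed to 1.53 to 2.48 RPKM in healthy and 1.82 to 3.06 RPKM in tumor-bearing mice.

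From blood to tumor, neutrophils of tumor-bearing mice held less of 4 of these transcripts. Of the 6 genes tested, Camp, Ltf, Chil3 and Ngp fell and none rose, where 4.41% of 13674 genes tested were called lower. This comparison uses the same 4 blood libraries as the last one, so that the 2 sets of values are not independent. The median over the 6 genes was -3.38, against 0.11 over all genes tested. Camp and Chil3 lacked enough counts in some tumor libraries, their lowest being 9 and 1 counts. Both passed the filter on low counts only through blood, so that the count of 4 in 6 is partly set by the filter.

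Camp stood at 0.469, 0.213, 1.45 and 0.198 RPKM in tumor neutrophils, below the lowest blood library of tumor-bearing mice at 5.79 RPKM. It fell by 4.81 on the log2 scale (SE 0.82, adjusted p = 0.00308). Ltf stood at 1.11, 1.02, 1.87 and 1.42 RPKM against 11.4 to 33.8 RPKM in blood and fell by 4.11 (SE 0.45, adjusted p = 5.62e-04).

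Ngp was uneven among tumor libraries, at 6.62 and 8.74 RPKM in replicates 1 and 2 and at 49.1 and 66.9 RPKM in replicates 3 and 4. All 4 lay under the lowest blood library, at 135 RPKM, and it fell by 3.10 (SE 0.72, adjusted p = 0.0144).

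Chil3 was at 0.160, 0.0113, 1.38 and 1.66 RPKM in tumor neutrophils and fell by 3.67 (SE 1.02, adjusted p = 0.0310). This call was lost when tumor replicate 1 or any 1 of the 4 blood libraries was left out, with adjusted p from 0.0506 to 0.0691.

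Lcn2 and Mmp8 were not called by edgeR. Lcn2 stood at 51.4, 142, 234 and 304 RPKM in tumor neutrophils, within the range of blood for 2 of the 4 (log2 fold change -0.88, SE 0.57, adjusted p = 0.317). Mmp8 stood at 16.4, 45.1, 180 and 280 RPKM, with 1 library within the range of blood (log2 fold change -2.10, SE 0.78, adjusted p = 0.0901), and DESeq2 called it lower (adjusted p = 0.0214).

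Tumor neutrophil libraries held other cells to different degrees. The summed level of 8 epithelial markers was 10.5 to 139.5 RPKM in them and at most 0.181 RPKM in the blood neutrophils of tumor-bearing mice, with 8 of 8 called higher, and that of 6 neutrophil markers was 1904 to 12237 RPKM against 15242 to 19946 RPKM. None of the 6 neutrophil markers was called by edgeR, limma-voom or DESeq2, and 0 had an unadjusted p under 0.05. Mitochondrial genes took 16.998% to 37.5% of counts in tumor and 9.36% to 16.8% in blood neutrophils, without overlap. The part of the other cells and of the mitochondrial share in the result was not tested. Set against Cxcr2 in the same library, Ngp was at 0.216 to 0.901 in blood and 0.0198 to 0.176 in tumor, Ltf at 0.0222 to 0.0718 and 0.00232 to 0.0184, and Camp at 0.0113 to 0.0640 and 4.84e-04 to 0.00776, with no overlap for any of the 3. The ratio of Lcn2 to Cxcr2 overlapped, at 0.302 to 1.18 in blood and 0.323 to 0.852 in tumor. Without tumor replicate 1, Ngp, Ltf and Camp remained called.

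Among the other granule genes, Orm1 (the acute-phase protein orosomucoid, -2.58), Cybb (-1.76) and Lyz2 (lysozyme, -1.62) were lower in tumor neutrophils and none of the 11 was higher. Srgn, which encodes the proteoglycan that packs granule proteins, rose by 1.89 and Ctsc by 1.62. Cd14, the co-receptor for lipopolysaccharide, rose by 2.97 and the transcription factor gene Cebpb by 1.85.

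Ngp, Camp and Ltf, 3 of the 4 genes called in both neutrophil comparisons, lie within 1.20 Mb of chromosome 9, so their promoters are printed. Camp (ENSMUSG00000038357) is on the - strand at chr9:109847379-109849617, Ngp (ENSMUSG00000032484) on the + strand at chr9:110419747-110423012, 570.13 kb from Camp, and Ltf (ENSMUSG00000032496) on the + strand at chr9:111019271-111042767, 596.259 kb from Ngp. The RefSeq windows on GRCm38.p6 are chr9:110419558-110419857, chr9:109849407-109849706 and chr9:111019042-111019341. Capitals mark TTGCNNAA on either strand, the letters of a C/EBP-type site with N for any base.
Ngp promoter: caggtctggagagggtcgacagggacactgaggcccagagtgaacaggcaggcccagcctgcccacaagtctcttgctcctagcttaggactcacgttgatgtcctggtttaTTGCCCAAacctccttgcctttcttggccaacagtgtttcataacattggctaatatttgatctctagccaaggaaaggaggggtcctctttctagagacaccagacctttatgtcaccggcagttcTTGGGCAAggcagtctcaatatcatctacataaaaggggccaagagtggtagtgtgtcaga
Camp promoter: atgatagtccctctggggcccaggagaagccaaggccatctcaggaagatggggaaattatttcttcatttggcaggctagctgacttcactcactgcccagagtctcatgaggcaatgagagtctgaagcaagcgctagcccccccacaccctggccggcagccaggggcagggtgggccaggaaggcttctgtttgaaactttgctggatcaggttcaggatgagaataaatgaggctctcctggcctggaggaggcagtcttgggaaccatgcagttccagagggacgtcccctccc
Ltf promoter: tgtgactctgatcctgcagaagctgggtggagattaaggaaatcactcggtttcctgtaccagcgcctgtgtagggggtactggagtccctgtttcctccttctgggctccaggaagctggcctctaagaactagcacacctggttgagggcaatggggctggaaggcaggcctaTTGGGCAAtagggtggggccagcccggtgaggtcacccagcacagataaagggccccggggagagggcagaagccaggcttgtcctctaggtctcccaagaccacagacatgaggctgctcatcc
TTGCNNAA, searched on both strands, began 138 and 11 bases before the start of Ngp and 75 before that of Ltf, and these letters are not in the window of Camp. They were in 4 of the 10 granule gene promoters, the other 2 being Lcn2 and Mmp8, and in 10.8% of the 32851 promoters. This motif, too, was chosen with the sequences in view. Of 51 other genes annotated between Camp and Ltf, 21 were tested, and 0 of them were called by edgeR in blood neutrophils or in blood monocytes of tumor-bearing against healthy mice, nor by limma-voom or DESeq2. At an unadjusted p under 0.05, 2 and 0 of the 21 differed. From blood to tumor, 2 of them were higher and 2 lower in neutrophils.

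Monocytes from blood of tumor-bearing mice also held more specific granule mRNA than healthy blood monocytes, which nearly lacked Ngp and Camp. Ngp, Lcn2 and Ltf rose, among 10 granule genes tested, where 0.0914% of 15313 genes tested were called higher. The median log2 fold change of the 10 genes was 3.75, against 0.02 over all genes tested. Camp, Ngp and Mpo were at 5 counts or fewer in each healthy monocyte library and passed the filter on low counts only through the tumor-bearing group. Elane and Prtn3, at 0 counts in healthy replicate 2, also needed the tumor-bearing libraries to pass it. The median thus rests in part on fold changes that start near 0 counts.

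Ngp stood at 0.0617, 0.0551, 0.0253 and 0.0195 RPKM in healthy blood monocytes, which is 5, 3, 2 and 1 counts, and at 63.0, 22.6, 33.1 and 49.95 RPKM in those of tumor-bearing mice, which is 1802 to 5507 counts. It rose by 10.19 on the log2 scale (SE 0.49, adjusted p = 1.73e-05). Ltf went from 0.133, 0.234, 0.240 and 0.0910 RPKM to 4.95, 2.92, 2.64 and 5.90 RPKM and rose by 4.65 (SE 0.44, adjusted p = 0.00396).

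Lcn2 went from 0.631, 0.558, 0.129 and 1.08 RPKM to 12.9, 3.78, 27.9 and 25.1 RPKM, with no overlap, and rose by 4.94 (SE 0.77, adjusted p = 0.0374). This call was lost without tumor-bearing replicate 1, 3 or 4 or healthy replicate 1 or 2 (adjusted p from 0.0922 to 0.178) and with limma-voom (0.108).

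Camp was at 0 counts in all 4 healthy monocyte libraries and at 530, 19, 166 and 255 counts in those of tumor-bearing mice, at least 352-fold higher with a floor of 3 counts over the group. It was not called by edgeR (adjusted p = 0.0591), and it was called without tumor-bearing replicate 2, its lowest library (adjusted p = 0.0286). Camp was also called with DESeq2 (2.86e-12) and in 1 model of all 40 libraries (0.00592). Chil3 (log2 fold change 2.85, SE 0.59, adjusted p = 0.104) and Mmp8 (1.92, SE 0.51, adjusted p = 0.189) were not called by edgeR, and DESeq2 called both higher (adjusted p = 5.61e-05 and 0.00883).

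Ngp, Ltf and Camp were compared with neutrophil markers as shares of the neutrophil level. Set against the mean of neutrophils from the same kind of blood, Ngp in the 4 monocyte libraries was at 7.98% to 22.3%, Ltf at 10.9% to 24.4% and Camp at 2.30% to 59.8%. Cxcr2 was at 0.0164% to 0.731%, Retnlg at 0.00183% to 0.292%, S100a8 at 0.431% to 0.949%, S100a9 at 0.103% to 1.32% and Ly6g at 2.09% to 3.35% of the neutrophil mean. The marker Csf3r, the receptor gene for granulocyte colony-stimulating factor, stood at 6.20% to 8.89%, overlapping with Ngp and Camp and also with Lcn2, at 1.04% to 7.66%, and Mmp8, at 2.87% to 13.7%. In healthy blood, Ngp in monocytes was at 0.248% to 0.785% of its mean in neutrophils, while Ltf was at 12.1% to 32.1% and Mmp8 at 9.90% to 23.4%, and the markers Retnlg and Ly6g at 0.215% to 15.5% and 33.0% to 157%. Summed over the 6 neutrophil markers, monocyte libraries were at 78.8 to 187 RPKM in tumor-bearing and 22.6 to 108 RPKM in healthy mice, and S100a8 (3.72) and S100a9 (5.45) were called higher while the other 4 were not. The levels of 4 genes of dividing cells summed to 2.37 to 5.17 RPKM in tumor-bearing and 1.18 to 1.92 RPKM in healthy mice, without overlap, and neither of the 2 tested was called. Markers of progenitor cells summed to 0.397 to 1.89 RPKM and 0.255 to 1.04 RPKM, which overlapped. The part of neutrophils and of dividing cells in these libraries was not tested.

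**Figure D3:**
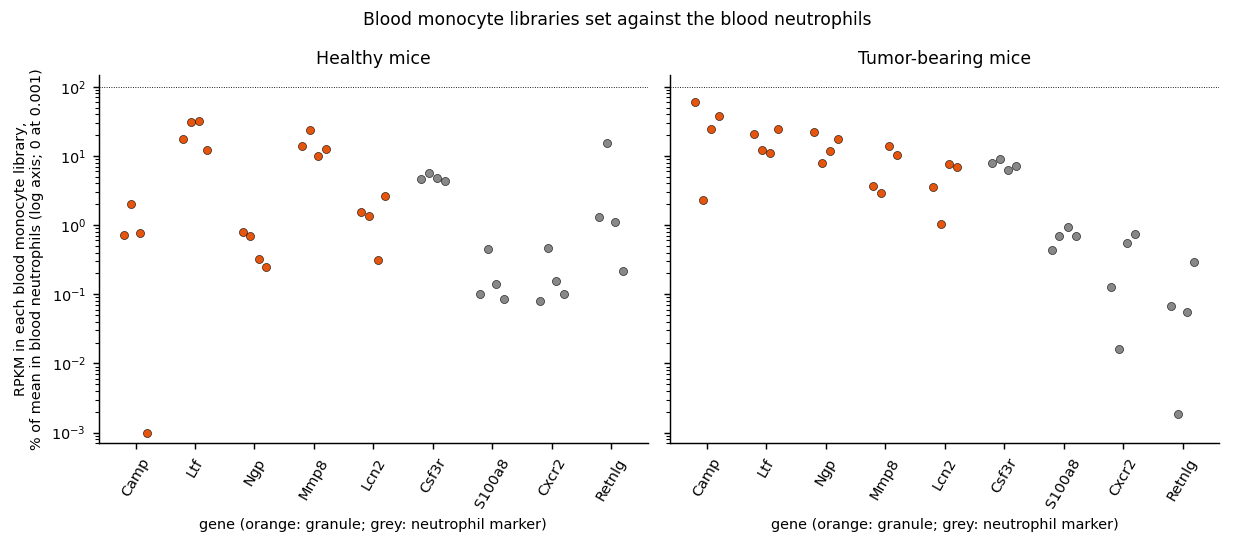
Values of 5 granule genes and 4 neutrophil markers in each blood monocyte library, as a percentage of the mean RPKM of the blood neutrophils of healthy mice (left) or tumor-bearing mice (right), on a log axis. In tumor-bearing mice Ngp lies between 7.98% and 22.3% and Cxcr2 between 0.0164% and 0.731%, and in healthy mice Ngp lies between 0.248% and 0.785%.

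No other granule gene was called in blood monocytes. Of 10 other specific granule genes tested, with a median of 0.08, 0 were called by edgeR, limma-voom or DESeq2 and 2 had an unadjusted p under 0.05. Of 6 other azurophil genes, 4 gelatinase granule genes and 7 transcription factors, 0 were called by any of the 3 tools, and 0, 0 and 1 had an unadjusted p under 0.05.

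In monocytes, Camp, Ngp and Ltf fell from blood to tumor, as did Elane, 4 of the 9 granule genes tested, where 3.89% of 15280 genes tested were called lower. Camp and Elane were at 5 counts or fewer in each tumor monocyte library and passed the filter on low counts only through blood. Ngp, at 7 counts in tumor replicate 1, also needed the blood libraries to pass it. The count of 4 in 9 is thus partly set by the filter. The 4 blood libraries are those of the last comparison, so that both results rest on them. Ngp stood at 0.116, 0.173, 1.10 and 0.262 RPKM in tumor monocytes, 7 to 76 counts, and fell by 6.37 on the log2 scale (SE 0.77, adjusted p = 3.75e-04). Camp was at 0 to 4 counts and fell by 6.92 (SE 1.17, adjusted p = 0.00265), and Ltf, at 0.188, 0.604, 0.265 and 0.319 RPKM, fell by 3.34 (SE 0.43, adjusted p = 5.95e-04).

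Lcn2 (log2 fold change -1.18, adjusted p = 0.176), Mmp8 (-0.88, adjusted p = 0.252), Chil3 (-0.58, adjusted p = 0.564), Mpo (-2.74, adjusted p = 0.111) and Prtn3 (-1.78, adjusted p = 0.280) were not called by edgeR, and DESeq2 called Mpo lower (adjusted p = 0.0325). Neutrophil markers S100a8 (-1.86) and S100a9 (-3.05) were lower in tumor monocytes. Among the other granule genes, Adam8, a metalloprotease of granule membranes, rose by 5.12, Slpi by 4.21, Slc11a1, a metal transporter, by 1.96 and Srgn by 3.33, while Mmp9 (-2.45) was not called.

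The change from blood to tumor was compared between neutrophils and monocytes in 1 model of 16 libraries. None of 9 granule genes tested was called by edgeR at an adjusted p under 0.05, where 3.99% of 17465 genes were, and Elane, Ngp and Chil3 had an unadjusted p under 0.05. Ngp had a difference of 3.15 (SE 1.03, adjusted p = 0.0903), its fall being smaller in neutrophils, and Chil3 of -3.18 (SE 1.21, adjusted p = 0.138). DESeq2 called Elane and Ngp, and limma-voom and limma on log2(RPKM + 1) called Elane. Ngp was also called without tumor monocyte replicate 3 (adjusted p = 0.0226) or tumor neutrophil replicate 1 (0.0471). Slpi (-3.66) and Adam8 (-4.09), which rose in tumor monocytes, were called as different between the cell types.

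Neutrophils and monocytes of the same source differed in both directions. In healthy blood all 5 genes tested were called: Ngp (log2 fold change 8.41, SE 0.52), Lcn2 (6.86, SE 0.70), Mmp8 (3.51, SE 0.32) and Ltf (2.80, SE 0.53) were higher in neutrophils and Chil3 (-5.58, SE 0.42) was lower, with adjusted p from 4.32e-06 to 0.00176, where 16.7% of 15033 genes tested were called higher and 20.4% lower. Ngp, at 5 counts or fewer in each healthy monocyte library, passed the filter on low counts only through neutrophils. The count of 5 in 5 is thus partly set by the filter. Camp, not tested in healthy blood, was at 4 to 120 counts in healthy neutrophils and 0 in healthy monocytes, at least 58.5-fold higher. Ctsg was at 0 counts in the healthy neutrophils and at 0 to 37 counts in the monocytes, at least 27.2-fold higher in the latter.

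In blood of tumor-bearing mice, Lcn2 (5.07), Mmp8 (4.37), Ngp (3.47), Ltf (3.30) and Camp (2.46) were higher in neutrophils, 5 of 9 granule genes tested, where 15.1% of 14462 genes were called higher. Chil3 (-3.08), Prtn3 and Elane were lower, where 23.0% were. Elane, at 0 counts in each neutrophil library, and Prtn3, at 2 to 25 counts, passed the filter on low counts only through the monocytes. The count of genes called lower is thus partly set by the filter. Camp was not called without monocyte replicate 3 (adjusted p = 0.0590) or neutrophil replicate 4 (0.0752), in 1 model of all 40 libraries (0.0764) or with limma on log2(RPKM + 1) (0.0620). Mpo missed the threshold (adjusted p = 0.0784) and was called with limma-voom (0.00911) and without neutrophil replicate 1 (0.00603), which held 24 of the 24 counts of Mpo in that group.

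In tumors, Ngp (6.77, SE 1.10), Lcn2 (5.40, SE 0.70), Mmp8 (3.22, SE 0.78) and Ltf (2.54, SE 0.61) were higher in neutrophils than in monocytes and Chil3 (-6.09, SE 1.17) was lower, which is all 5 tested, where 4.65% of 15003 genes were called higher and 2.80% lower. Ngp was at 7 counts in monocyte replicate 1 and Chil3 at 1 count in neutrophil replicate 2. Both passed the filter on low counts only through the cell type with the higher level. The count of 5 in 5 is thus partly set by the filter. The calls of Mmp8 and Ltf depended on single libraries. Ltf was lost without monocyte replicate 1, 3 or 4 or neutrophil replicate 3 or 4 (adjusted p from 0.0755 to 0.111), and Mmp8 was lost without those or monocyte replicate 2 (0.0771 to 0.108). In tumors 3 animals gave both cell types, and in a fit of those 6 libraries with the animal as a block Ltf was not called (adjusted p = 0.135) and Mmp8 was. Limma-voom did not call Mmp8 (0.0858), and Ltf was not called without the filter (0.0726).

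Chil3 was distributed unlike the 5 other specific and related granule genes. In monocytes it stood at 16.5, 34.1, 15.7 and 13.9 RPKM in healthy blood, 44.1, 62.7, 286 and 143 RPKM in blood of tumor-bearing mice and 126, 26.7, 85.8 and 57.6 RPKM in tumors. In order of its means the 3 monocyte groups came first and each overlapped with the next, healthy blood monocytes overlapped with neutrophils from blood of tumor-bearing mice, and those were separate from tumor stromal cells. Chil4, a near-identical neighbour gene, stood at 34.1% to 41.3% of Chil3 in the 20 libraries where Chil3 had at least 1 RPKM. How reads shared by both genes were assigned is not given in the sources used here, so the level of each is uncertain.

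For the other members, Ngp and Ltf in neutrophils from blood of tumor-bearing mice were separate from the next group in order, blood monocytes of the same mice, at 283 ± 132 against 42.2 ± 17.9 RPKM (SD, n = 4 each) for Ngp and 24.2 ± 10.0 against 4.10 ± 1.58 RPKM for Ltf. For Lcn2 and Mmp8 the next in order was tumor neutrophils, at 183 ± 110 RPKM and 130 ± 123 RPKM, which overlapped with the first, at 364 ± 178 and 574 ± 341 RPKM. Camp in blood neutrophils of tumor-bearing mice, at 16.3 ± 11.3 RPKM, overlapped with their blood monocytes, at 5.06 ± 3.93 RPKM.

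Tumor epithelial cells carried Lcn2 and a low level of Ltf. Both genes rose, the only 2 tested, where 7.52% of 16085 genes tested were called higher. Both passed the filter on low counts only through tumor epithelium, where they are high. Lcn2 was at 173, 5, 3 and 25 counts in healthy epithelium. The count of 2 in 2 is thus shaped by the filter. Without the filter none of the other members fitted was called. Their log2 fold changes were -3.90 for Ngp, -1.92 for Mpo, -1.07 for Chil3, 0.009 for Prtn3, 0.196 for Mmp8, 0.794 for Camp and 1.97 for Elane. Lcn2 stood at 1.19, 0.0247, 0.0217 and 0.0964 RPKM in healthy colon epithelium and 11.2, 10.2, 37.1 and 17.2 RPKM in tumor epithelium. The groups did not overlap, with healthy replicate 1 far above its group, and Lcn2 rose by 4.95 (SE 1.10, adjusted p = 0.00851). Ltf stood at 0 to 3 counts in healthy epithelium and 0.212, 0.321, 1.33 and 0.634 RPKM, 42 to 401 counts, in tumor epithelium, and rose by 6.01 (SE 0.80, adjusted p = 4.81e-04).

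Of 4 neutrophil markers tested there, 0 were called higher and Retnlg was lower. Cxcr2 was at most 0.0593 RPKM in tumor epithelium, and the 6 neutrophil markers summed to 0.921 to 4.40 RPKM there and to 6.68 to 12.4 RPKM in healthy epithelium, where Retnlg made up most of the sum in 3 of the 4 libraries. Markers of other cells were higher in tumor epithelium without overlap, 6 monocyte markers summing to 9.06 to 26.0 RPKM against 0.442 to 2.06 RPKM in healthy epithelium, 3 endothelial markers to 4.21 to 4.56 RPKM against 0.0394 to 0.360 RPKM and 4 red cell genes to 21.9 to 62.9 RPKM against 0.485 to 15.8 RPKM. Their part in the rise of Lcn2 and Ltf was not tested. Ngp was at most 0.140 RPKM, Mmp8 at most 0.146 RPKM and Camp at most 0.561 RPKM in tumor epithelium, and these were not tested because of low counts. Replicate 4 of healthy epithelium was at 90.8 RPKM of the 8 epithelial markers, against 697 to 1068 RPKM in the other 3, and was the highest of its group in Ngp, at 0.539 RPKM.

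**Figure D4:**
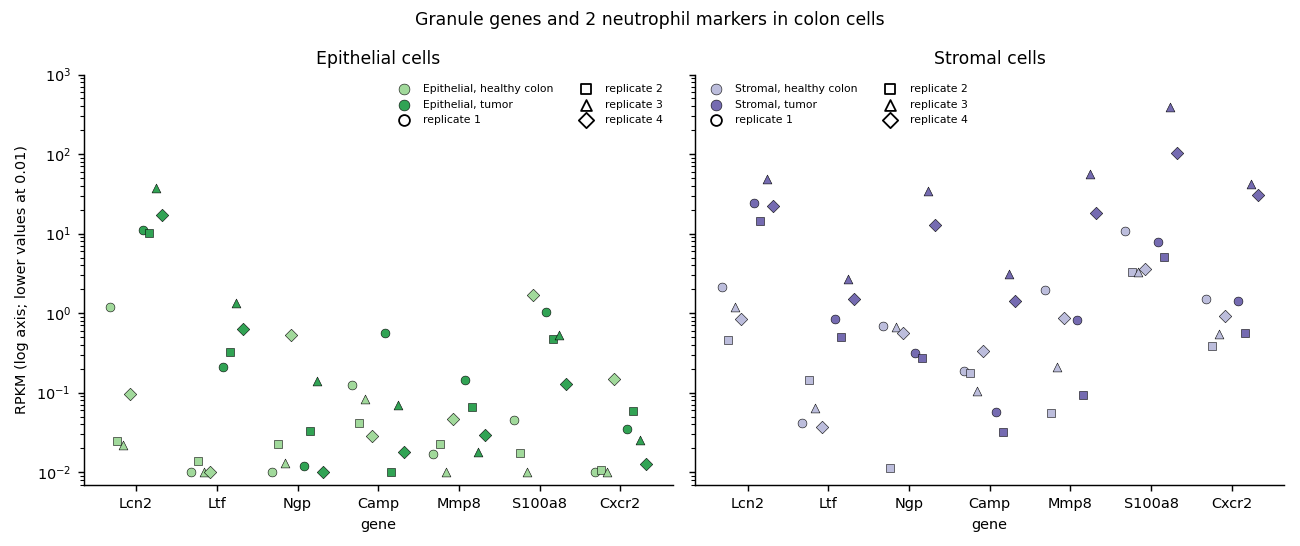
Values of 5 granule genes and 2 neutrophil markers, S100a8 and Cxcr2, in each epithelial library (left) and stromal library (right) of healthy colon (light) and tumor (dark), in RPKM on a log axis with values under 0.01 drawn at 0.01 and 1 symbol per replicate number. Lcn2 in tumor epithelium lies between 10.2 and 37.1 RPKM with Cxcr2 at most 0.0593 RPKM, and in tumor stroma Ngp, Mmp8, S100a8 and Cxcr2 are high in replicates 3 and 4.

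In tumor stromal cells, Lcn2 and Ltf rose as well, 2 of 5 granule genes tested, where 3.39% of 19081 genes were called higher. Ltf, at 9 to 35 counts in healthy stroma, passed the filter on low counts only through tumor stroma. The count of 2 in 5 is thus partly set by the filter. Lcn2 went from 2.15, 0.465, 1.19 and 0.851 RPKM to 24.3, 14.3, 49.0 and 22.4 RPKM (log2 fold change 4.91, SE 0.54, adjusted p = 0.00433), and Ltf from 0.0416, 0.144, 0.0635 and 0.0375 RPKM to 0.843, 0.502, 2.67 and 1.504 RPKM (4.53, SE 0.68, adjusted p = 0.00719). Ngp stood at 0.313 and 0.275 RPKM in tumor replicates 1 and 2 and at 34.1 and 12.9 RPKM in replicates 3 and 4, and Mmp8 was split in the same way, at 0.811 and 0.0939 against 55.6 and 18.1 RPKM. Neither gene was called by edgeR (adjusted p = 0.0927 and 0.125), while DESeq2 (0.00136 and 0.00274) and 1 model of all 40 libraries (0.0117 and 0.00492) called both higher.

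Replicates 3 and 4 were also those with neutrophil markers, which summed to 1508 and 511 RPKM in them and to 40.9 and 8.46 RPKM in replicates 1 and 2, and Cxcr2 and Csf3r were called higher in tumor stroma, as were 6 of 10 other specific granule genes tested, among them Cd177 (5.29) and Pglyrp1 (5.05), a peptidoglycan recognition protein. Without both libraries, an alternative chosen after their values were seen, Lcn2 (log2 fold change 4.47, SE 0.51, adjusted p = 0.00209) and Ltf (3.57, SE 0.66, adjusted p = 0.00985) were still higher, and Ngp (-0.24), Mmp8 (-0.42) and Camp (-1.48) turned to the other sign without being called. Chil3, left out of the test of all 8 libraries by its low counts, was called higher without both (3.28, SE 0.97, adjusted p = 0.0480). That call rests on 12 counts in each of tumor replicates 1 and 2 against 0 to 5 counts in healthy stroma, which is near the floor. The summed level of 8 epithelial markers was 29.9 to 203 RPKM in tumor stroma, highest in replicates 1 and 2, and 0.882 to 31.1 RPKM in healthy stroma, and 5 fibroblast markers summed to 5.73 to 23.5 RPKM in tumor and 345 to 1985 RPKM in healthy stroma, with 5 of 5 called lower. The 4 genes of dividing cells summed to 6.27 to 12.4 RPKM and 0.885 to 2.70 RPKM, with 3 of 3 tested called higher. The sorted stromal libraries of tumor and healthy colon thus differed in the cell markers they held, and the part of this in the rise of Lcn2 and Ltf was not tested.

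Profiles like those of the granule genes were looked for among 2482 genes that reached a mean of 10 RPKM in a group, by Pearson correlation of the 10 group means on the log2(RPKM + 1) scale. Closest to the mean profile of the 6 specific and related granule genes were Gpi1 (0.899), Bst1 (0.893), Gm11433 (0.891), Cd37 (0.888) and Atp11a (0.884), each with its highest mean in neutrophils from blood of tumor-bearing mice. Closest to that of the azurophil genes were Ap2a2 (0.862), Ifi44l (0.851), Gm5398 (0.846), Gm43444 (0.843) and Cox7a2l (0.842), of which Ifi44l was highest in healthy blood monocytes and the others in blood monocytes of tumor-bearing mice. The 10 means share the groups and their libraries, so that these values are a description.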

How the data were processed

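RNA from the 40 sorted libraries had been amplified to cDNA, made into libraries and sequenced by the authors, who aligned the reads to mm10. The annotation release, the strand setting and the handling of reads with several matches are not given in the sources used here. The deposited tables held estimated counts per gene, of which 99.6% of the nonzero values were not whole, and RPKM values computed by the authors. The estimated counts were rounded to whole numbers, and RPKM was used for levels only and for limma on log2(RPKM + 1). Groups came from the labels of the samples. Of 45706 genes, 45143 matched a symbol of the gene annotation. Counts per library had a median of 16337511.5. In each comparison of 4 with 4 libraries, genes were filtered with filterByExpr, scaled by TMM and tested with edgeR 4.0.16 (R 4.3.3) by its quasi-likelihood method in robust form, with Benjamini-Hochberg adjustment over all genes tested. For a call, the adjusted p had to be under 0.05 and the log2 fold change beyond 1.5 in either direction, or the adjusted p alone for the difference between changes. The SE was the absolute log2 fold change divided by the square root of the F statistic. Alternatives were no fold threshold, limma-voom (limma 3.58.1), DESeq2 1.42.0, its size factors in edgeR, no filter, 1 model of all libraries, limma on RPKM, no mitochondrial genes, a block for replicate number, a block for animals over the 3 that gave both tumor libraries, and each library left out. Tables were made with Python 3.11.15 and pandas 2.3.3. The scripts were tested on simulated counts with known changes. The members and lists were chosen with earlier results of these data known. All 10 members were named, list genes were counted and those called were given with values, with a few uncalled ones chosen after their values were seen, and the 5 genes closest to each profile were named. Within groups, 60 pairs of replicates differed by 21.5 to 852.4 times the counting variance, so none was 1 library deposited more than once. Within each group the sample titles name a different animal, or pair of animals, for each library, and the p-values measure the spread between these libraries. Some animals gave libraries to both groups of a comparison. This holds between neutrophils and monocytes of each source, and between blood and tumor for T5 in neutrophils and T17 in monocytes. The main fits took all libraries as independent, and a block for animals was fitted only between tumor neutrophils and monocytes.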

Additional observations from a re-analysis of the deposited data

Results flagged for a closer look

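Of 100 combinations of granule gene and group, 83 had a library with more than 3 counts. In 15 of them 1 library stood apart from the other 3, and it was the highest library each time. For normally distributed values about 1 in 20 groups would be picked out by chance. RPKM is bounded at 0 and was not put on a log scale here, so this rate need not hold. The 15 are therefore not read as an excess. The gap of the library to its nearest neighbour, over the range of the group, exceeded Dixon's critical value for 4 samples in each, and most of the levels were low. Mpo stood apart at 0.106 RPKM in replicate 1 of blood neutrophils and 1.02 RPKM in replicate 4 of blood monocytes of tumor-bearing mice, 0.0331 RPKM in replicate 4 of healthy epithelium and 0.163 RPKM in replicate 4 of tumor stroma. Elane stood apart at 0.101 RPKM in replicate 1 of tumor monocytes and 0.334 RPKM in replicate 4 of tumor stroma, and Prtn3 at 0.210 RPKM in replicate 1 of blood neutrophils of tumor-bearing mice and 0.0643 RPKM in replicate 3 of tumor neutrophils. Lcn2 stood apart at 1.19 RPKM in replicate 1 of healthy epithelium. Camp did so at 1.71 RPKM in replicate 2 of healthy blood neutrophils and 0.561 RPKM in replicate 1 of tumor epithelium. Ngp was apart at 1.10 RPKM in replicate 3 of tumor monocytes and 0.539 RPKM in replicate 4 of healthy epithelium. Chil3 was apart in replicate 2 of both healthy blood groups, at 0.417 RPKM in neutrophils and 34.1 RPKM in monocytes.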

How the results depend on the processing

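Counts of granule genes called from blood to tumor in neutrophils and monocytes, and in blood neutrophils of tumor-bearing against healthy mice, stayed within 1.5 times under each alternative, and where other counts moved the cause was not tested. Of 10 genes tested in blood monocytes of tumor-bearing against healthy mice, 7 were called with DESeq2 and 2 to 4 with 1 library left out. Between neutrophils and monocytes, calls went from 5 to 8 in healthy blood without the filter and in the model of all libraries, where more genes were tested, and were 6 to 8 with 1 library left out, reaching 8 without monocyte replicate 2 or neutrophil replicate 1. They were 5 in blood of tumor-bearing mice and 3 in tumors with limma on RPKM, and 3 to 5 in tumors with 1 library left out. In epithelium limma on RPKM called 1 gene, and in stroma it called 1, DESeq2 4 and the model of all libraries 5. For the difference between blood-to-tumor changes limma-voom and limma on RPKM called 1 and DESeq2 2, and 0 to 1 were called with 1 library left out. Of the 5 closest genes per profile, Spearman kept 0 (azurophil) and 1 (specific), and Pearson over 40 libraries 0 and 2.

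None of the values that took the other sign was called. With 1 library left out, Chil3 from blood to tumor in monocytes ran from -0.98 to 0.093, being positive without blood replicate 3, and Ctsg in blood monocytes of tumor-bearing against healthy mice from -0.69 to 0.45. Ctsg was -0.66 with limma-voom and -0.035 with limma on RPKM. In stroma without both libraries rich in neutrophil markers, Camp was -1.48, Ngp -0.24 and Mmp8 -0.42. For the difference between blood-to-tumor changes with 1 library left out, Mpo ran from -0.49 to 6.51, Prtn3 from -4.53 to 0.56 and Lcn2 from -0.14 to 0.53. In that comparison Prtn3 was 0.55, Camp -1.04 and Lcn2 -0.037 with limma on RPKM, and Lcn2 was -0.32 with limma-voom.

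By the titles, tumor neutrophil and tumor monocyte libraries with replicate numbers 2, 3 and 4 came from the same animals. In blood of tumor-bearing mice those with numbers 1 and 4 did, and those with number 3 shared 1 animal. In the other comparisons most same-numbered libraries named different animals. Same-numbered libraries did not deviate together in each comparison, and in none did every library correlate best with its own number. Such a correlation over all genes cannot show that libraries were unpaired. With a block for the number, 1 gene was called in blood monocytes, Ngp (Ltf had an adjusted p of 0.0516 and Lcn2 of 0.128), 3 between tumor neutrophils and monocytes, without Ltf (0.0938) and Mmp8 (0.145), and Ctsg was -0.086, and the counts elsewhere were 4 and 6 in neutrophils, 4 in tumor against blood monocytes, 5 and 8 between the blood cell types and 2 in epithelium. Counts near 0 limit what can be said of the azurophil genes.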
